A study of Homo sapiens with 22 samples.

Results

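Nuclear receptors are transcription factors that carry a zinc-finger DNA-binding domain and, in most members, a pocket for a small lipid-soluble ligand such as a steroid, a retinoid, thyroid hormone, vitamin D, a fatty acid or a bile acid. Without ligand many of them hold corepressor complexes, and with ligand they exchange these for coactivators, among them the p160 proteins, CREBBP and the histone acetyltransferase p300, encoded by EP300. The family was followed here in cells given p300 or the VPR activator fused to dCas9. The family was taken as a list of 46 gene symbols. Of these, 45 matched a row of the 48162 gene IDs in the count table, and NR2E3 was left out of all work on the counts. A low-count filter left 38 members for testing. The other 7 members, ESR1, HNF4A, NR0B1, NR0B2, NR1H4, NR1I2 and PGR, are given by their counts.

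The 12 libraries were poly(A)-selected RNA from HEK293, a line made from human embryonic kidney, with 2 biological replicates in each of 6 groups. VPRP sgHBB, VPR sgHBB, p300 sgHBB and p300 D1399Y sgHBB cells carried a dCas9 fusion with a guide for the HBB (beta-globin) gene, VPRP non-target cells carried the VPRP fusion with a guide that has no target, and WT cells carried a guide but no fusion. dCas9 binds DNA at the guide's site without cutting it. VPR is a fusion of activation domains, p300 a histone acetyltransferase, D1399Y a substitution that impairs its acetyltransferase activity, and VPRP a fusion that joins VPR with p300. Fusion cells were given dox for 48 hours and sorted as GFP+ and BFP+, whereas WT cells were sorted as BFP+ alone. The protocol text shared by all samples names dox, but the WT samples are labelled as untreated, so it is not clear whether WT cells were given dox, and the labels do not say which guide they carried. Every comparison with WT therefore also compares fusion with no fusion, the GFP sort with none and possibly dox with no dox, and these cannot be told apart.

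The libraries held 14894558 to 17479523 counts. Among genes with a mean of at least 50 counts, the variance between replicates over counting error was 13.57 with VPR sgHBB. It was 2.863 to 7.325 in the other groups. The test used below shares an estimate of the spread over all groups. SE and adjusted p with VPR sgHBB may therefore understate the spread of that group. Of 6 matched genes that mark HEK293, all 6 exceeded 3 counts in every group, with a summed level in CPM (counts scaled to library size) of 272.7 to 279.6 with VPRP sgHBB, 319.4 to 346.1 with VPR sgHBB, 262.7 to 269.8 with p300 sgHBB, 417.2 to 418.5 with p300 D1399Y sgHBB and 262.0 to 276.5 in VPRP non-target cells, against 388.5 to 402.0 in WT. The D1399Y libraries lay above WT and those of the other fusion groups under it, and the part of these levels in the results was not tested. HBB averaged 1556 ± 250 CPM with VPRP sgHBB and 187 ± 2.67 CPM with p300 sgHBB, and had 0 counts in VPRP non-target and WT cells (SD, n = 2 each). EP300 averaged 375 ± 33.3 CPM with VPRP sgHBB, 98.7 ± 17.6 with VPR sgHBB, 1124 ± 11.2 with p300 sgHBB, 195 ± 1.19 with p300 D1399Y sgHBB, 1172 ± 9.92 in VPRP non-target cells and 107 ± 5.4 in WT (SD, n = 2 each), and these reads can come from the fusion or from the cells' own gene. The EP300 level was lower in VPRP sgHBB than in VPRP non-target cells, and lower in p300 D1399Y sgHBB than in p300 sgHBB cells. A pair of genes unrelated to the family split the groups in another way. MAGEA10 was at 0 to 0.261 CPM in the VPRP sgHBB, p300 sgHBB and p300 D1399Y sgHBB libraries and at 9.34 to 32.1 CPM in the VPR sgHBB, VPRP non-target and WT libraries, while TWIST2 was at 2.93 to 4.43 CPM in the first set and at 0 to 0.0607 CPM in the second. Comparisons within a set are p300 with p300 D1399Y, VPRP sgHBB with p300, and VPR or VPRP non-target with WT. The other comparisons cross the sets, so in them fusion or guide cannot be told apart from that division.

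Promoter windows of 3 members are shown, because these genes differed from WT in most fusion groups and in opposite directions: NR2F1 was lower, PPARD and RXRG were higher. Each window runs 250 bases before to 50 bases after the RefSeq start (GRCh38.p14; the counts used hg19): chr5:93582972-93583271 on the plus strand for NR2F1, chr6:35342308-35342607 on the plus strand for PPARD, and chr1:165445077-165445376 on the minus strand for RXRG. Capitals mark, on either strand, the receptor core hexamer AGGTCA, the GC box GGGCGG and the CCAAT box.
NR2F1: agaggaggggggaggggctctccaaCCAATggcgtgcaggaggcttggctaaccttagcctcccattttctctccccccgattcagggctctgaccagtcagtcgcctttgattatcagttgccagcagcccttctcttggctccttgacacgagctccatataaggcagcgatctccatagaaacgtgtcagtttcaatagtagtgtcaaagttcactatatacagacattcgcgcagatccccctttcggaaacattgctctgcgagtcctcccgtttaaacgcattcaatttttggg
PPARD: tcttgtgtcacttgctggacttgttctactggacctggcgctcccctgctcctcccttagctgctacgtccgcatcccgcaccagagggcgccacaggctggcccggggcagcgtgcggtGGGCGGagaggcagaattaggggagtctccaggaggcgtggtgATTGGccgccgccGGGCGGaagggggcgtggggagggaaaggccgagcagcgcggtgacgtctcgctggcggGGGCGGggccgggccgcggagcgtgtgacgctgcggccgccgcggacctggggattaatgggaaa
RXRG: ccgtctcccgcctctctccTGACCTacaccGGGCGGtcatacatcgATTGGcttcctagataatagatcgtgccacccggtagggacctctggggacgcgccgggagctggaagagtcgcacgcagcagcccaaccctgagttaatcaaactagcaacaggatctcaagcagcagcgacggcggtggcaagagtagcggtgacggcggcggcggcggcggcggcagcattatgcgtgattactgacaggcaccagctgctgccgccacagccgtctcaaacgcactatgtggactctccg
The NR2F1 window held a CCAAT box and no GC box, the PPARD window 3 GC boxes and a CCAAT box on the reverse strand, and the RXRG window a receptor hexamer on the reverse strand, a GC box and a CCAAT box on the reverse strand. Of the 46 listed genes, 41 had a window, NR2E3 among them, and VDR, NR4A2, NR0B2, HNF4G and NR2F6 had none. Of the 41 with a window, 7 held AGGTCA on either strand (17.1%, against 13.8% of 35116 windows of this length over all genes). The GC box was in 23 of 41 (56.1%, against 45% of all), CCAAT in 16 of 41 (39%, against 34.6%), the TATA box TATAAA in 3 of 41 (7.3%, against 11.5%) and the cyclic AMP element TGACGTCA in 2 of 41 (4.9%, against 1.8%). The median GC content was 61% in member windows and 58.7% in all windows. A match describes the letters of a window and does not show that a factor binds there.

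HEK293 expressed most of the family. A member was taken as expressed in a group when both libraries held at least 1 CPM, scaled by TMM factors, and as silent when both held under 0.5 CPM; transcript lengths were not used, so levels are compared within a gene and not between genes. In WT cells 35 of the 45 members were expressed, 8 were silent and 2, ESR2 and NR2E1, lay between. The expressed set held the glucocorticoid and mineralocorticoid receptors NR3C1 and NR3C2, the thyroid hormone receptors THRA and THRB, and all retinoic acid receptors (RARA, RARB, RARG). It also held RXRA, RXRB and RXRG, VDR, all PPARs, the liver X receptors NR1H2 and NR1H3, and the xenobiotic receptor NR1I3. Further expressed members were the clock receptors NR1D1, NR1D2, RORA and RORB, and the estrogen-related receptors ESRRA, ESRRB and ESRRG. HNF4G, NR2C1, NR2C2, NR2F1, NR2F2, NR2F6, the NR4A genes, NR5A2 and NR6A1 were expressed as well. The silent set held ESR1 (estrogen receptor alpha), PGR (progesterone receptor), HNF4A (a liver, gut and kidney factor), NR1H4 (bile acid receptor FXR), NR1I2 (xenobiotic receptor PXR), NR5A1 (steroidogenic factor SF-1), NR0B1 (DAX-1) and NR0B2 (SHP). The number expressed was 35 with VPRP sgHBB, 36 with VPR sgHBB, 35 with p300 sgHBB, 35 with p300 D1399Y sgHBB and 35 in VPRP non-target cells, against 35 in WT.

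**Figure D1:**
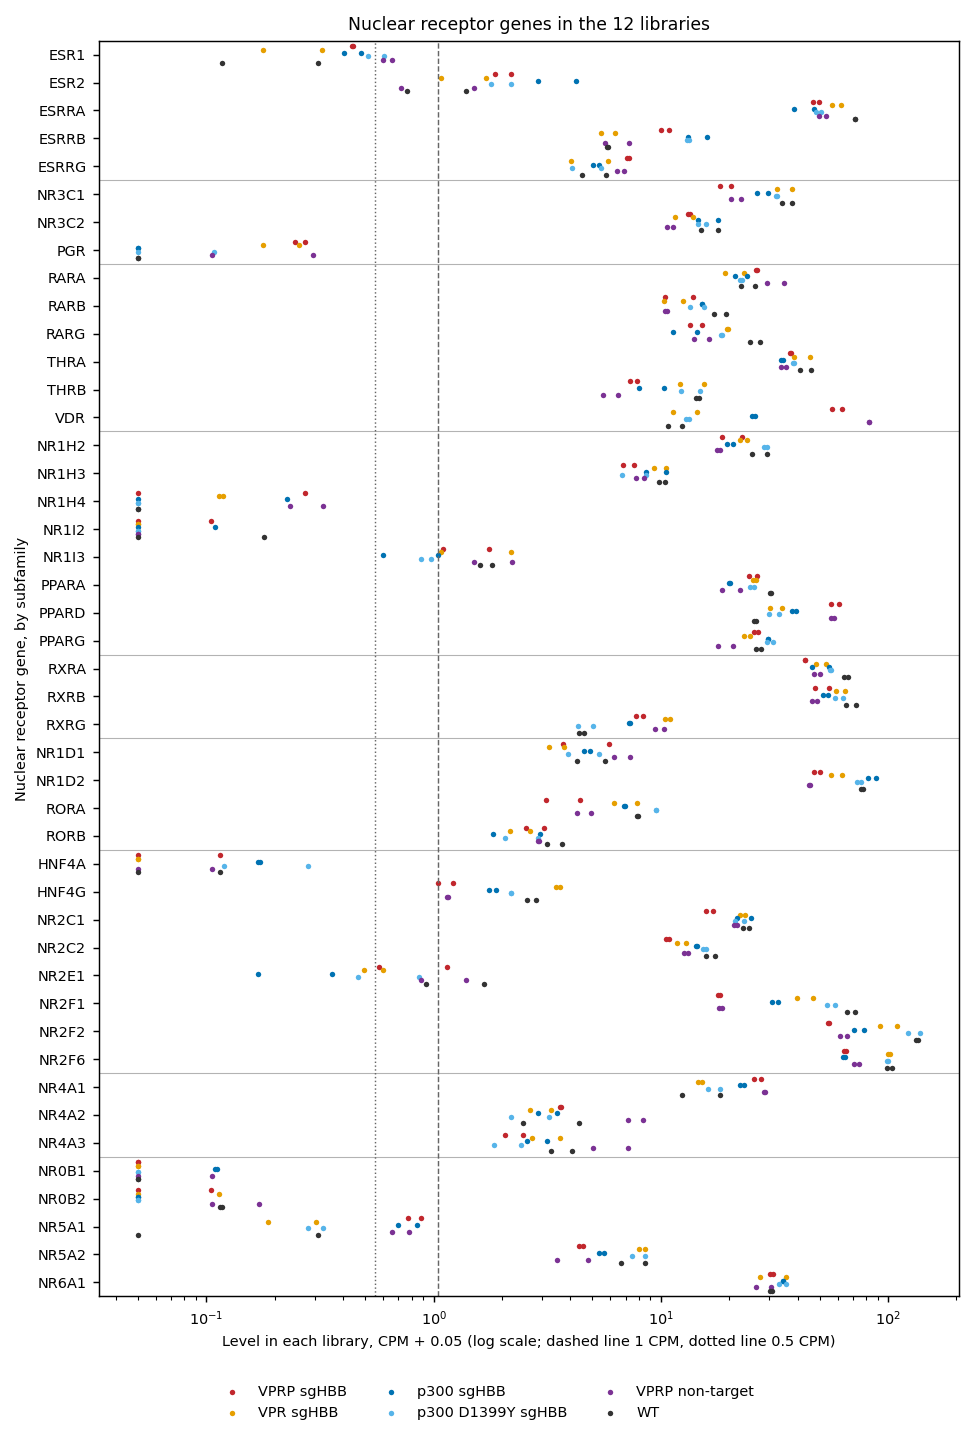
Level of each member in each of the 12 libraries (horizontal log axis, CPM + 0.05 with CPM scaled by TMM; rows are genes by subfamily, points are libraries coloured by group). The dashed line marks 1 CPM and the dotted line 0.5 CPM. The 8 members silent in WT stay left of the dashed line in every library, with NR5A1 and ESR1 nearest to it.

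None of the 8 silent members came on. Coming on was defined as silent in WT, at least 1 CPM in both libraries of a fusion group and called higher there. The count was 0 with edgeR's quasi-likelihood test, 0 at an unadjusted p under 0.05 and 0 with DESeq2. No silent member reached 1 CPM in any library. The level alone thus fixed this count, and the choice of test could not change it. NR5A1 came nearest. It had 0.718 and 0.829 CPM with VPRP sgHBB, 0.253 and 0.137 CPM with VPR sgHBB, 0.796 and 0.648 CPM with p300 sgHBB, 0.231 and 0.277 CPM with p300 D1399Y sgHBB, 0.729 and 0.609 CPM in VPRP non-target cells, and 0 and 0.259 CPM in WT. The VPRP sgHBB, p300 sgHBB and VPRP non-target libraries all lay above both WT libraries. The log2 fold change over WT was 2.49 (SE 0.827, adjusted p = 0.00995) with VPRP sgHBB, 2.39 (SE 0.836, adjusted p = 0.0188) with p300 sgHBB and 2.28 (SE 0.842, adjusted p = 0.0199) with VPRP non-target. NR5A1 passed the filter only through its fusion libraries, so these higher calls support nothing. It rested on 4 counts in WT replicate 2 and 0 in WT replicate 1. Without WT replicate 1 the adjusted p was 0.159, 0.225 and 0.234 in these comparisons in the same order, without VPRP sgHBB replicate 2 it was 0.0579 for VPRP sgHBB, without p300 sgHBB replicate 1 it was 0.0931 for p300 sgHBB, and without VPRP non-target replicate 1 or 2 it was 0.093 or 0.0533 for VPRP non-target. At a level of 0.5 CPM in place of 1 CPM, chosen after the data were seen, NR5A1 was the 1 gene to come on, in these 3 groups, and no gene did without WT replicate 1 or under the stricter filter of 1 CPM in at least 2 libraries, which leaves NR5A1 out.

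The untested silent members stayed at a handful of reads. ESR1 summed to 13 counts over the VPRP sgHBB libraries, 6 with VPR sgHBB, 13 with p300 sgHBB, 16 with p300 D1399Y sgHBB, 20 in VPRP non-target cells and 5 in WT. Its level in the VPRP non-target libraries, 0.547 and 0.609 CPM, was above the 0.0672 and 0.259 CPM of the WT libraries and under the level set for expression. The same held with VPRP sgHBB (0.391 and 0.387 CPM), p300 sgHBB (0.428 and 0.353 CPM) and p300 D1399Y sgHBB (0.462 and 0.553 CPM). The VPR sgHBB libraries had 0.127 and 0.274 CPM. PGR summed to 7, 5, 0, 1 and 5 counts in the VPRP sgHBB, VPR sgHBB, p300 sgHBB, p300 D1399Y sgHBB and VPRP non-target groups, and to 0 in WT. NR1H4 summed to 4, 2, 3, 0 and 8 counts in the same fusion groups and to 0 in WT. HNF4A, NR0B1, NR0B2 and NR1I2 had at most 5 counts in any group. A count of 0 allows up to 3 counts over a group, which is 0.0989 CPM in WT, and most of these sums lie near that limit.

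Most tested members differed from WT in the VPRP and p300 groups. A call is an adjusted p under 0.05 (Benjamini-Hochberg) from the quasi-likelihood test of edgeR, and its background is the share of all 16694 genes tested. Against WT, VPRP sgHBB gave calls in 28 of the 38 tested members (against 59.1% of all genes). Of the 38, 7 (18.4%) were higher and 21 (55.3%) lower, against 31.1% and 28.0% of all genes. Called changes of at least 2-fold were 7 of the 38, against 20.0% of all genes. VPR sgHBB gave calls in 10 of the 38 tested members (against 25.3% of all genes). Of the 38, 2 (5.26%) were higher and 8 (21.1%) lower, against 13.8% and 11.5% of all genes. Called changes of at least 2-fold were 1 of the 38, against 3.09% of all genes. p300 sgHBB gave calls in 21 of the 38 tested members (against 46.1% of all genes). Of the 38, 7 (18.4%) were higher and 14 (36.8%) lower, against 24.5% and 21.6% of all genes. Called changes of at least 2-fold were 7 of the 38, against 11.6% of all genes. With p300 D1399Y sgHBB there were calls in 7 of the 38 tested members (against 30.2% of all genes). Of the 38, 2 (5.26%) were higher and 5 (13.2%) lower, against 15.7% and 14.5% of all genes. Called changes of at least 2-fold were 1 of the 38, against 6.02% of all genes. There were 4 calls without WT replicate 1 or without WT replicate 2. In VPRP non-target cells there were calls in 28 of the 38 tested members (against 59.7% of all genes). Of the 38, 8 (21.1%) were higher and 20 (52.6%) lower, against 31.2% and 28.5% of all genes. Called changes of at least 2-fold were 9 of the 38, against 21.2% of all genes. The median log2 fold change of the tested members was -0.42 with VPRP sgHBB, -0.16 with VPR sgHBB, -0.24 with p300 sgHBB, -0.10 with p300 D1399Y sgHBB and -0.34 with VPRP non-target, against 0.04, 0.02, 0.03, 0.00 and 0.04 over all genes. Lower calls thus outnumbered higher ones among the members in all 5 comparisons, except that without WT replicate 2 there were 2 of each with p300 D1399Y sgHBB. The higher and 2-fold counts with VPRP sgHBB, p300 sgHBB and VPRP non-target include NR5A1, which passed the filter only through its fusion libraries, so its calls support nothing. Under the stricter filter, which leaves NR5A1 out, 6, 6 and 7 members were called higher, in the same order. The 5 comparisons share the WT libraries, so their likeness is not independent. In bulk RNA, fewer cells that express a gene and less RNA per cell cannot be told apart.

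**Figure D2:**
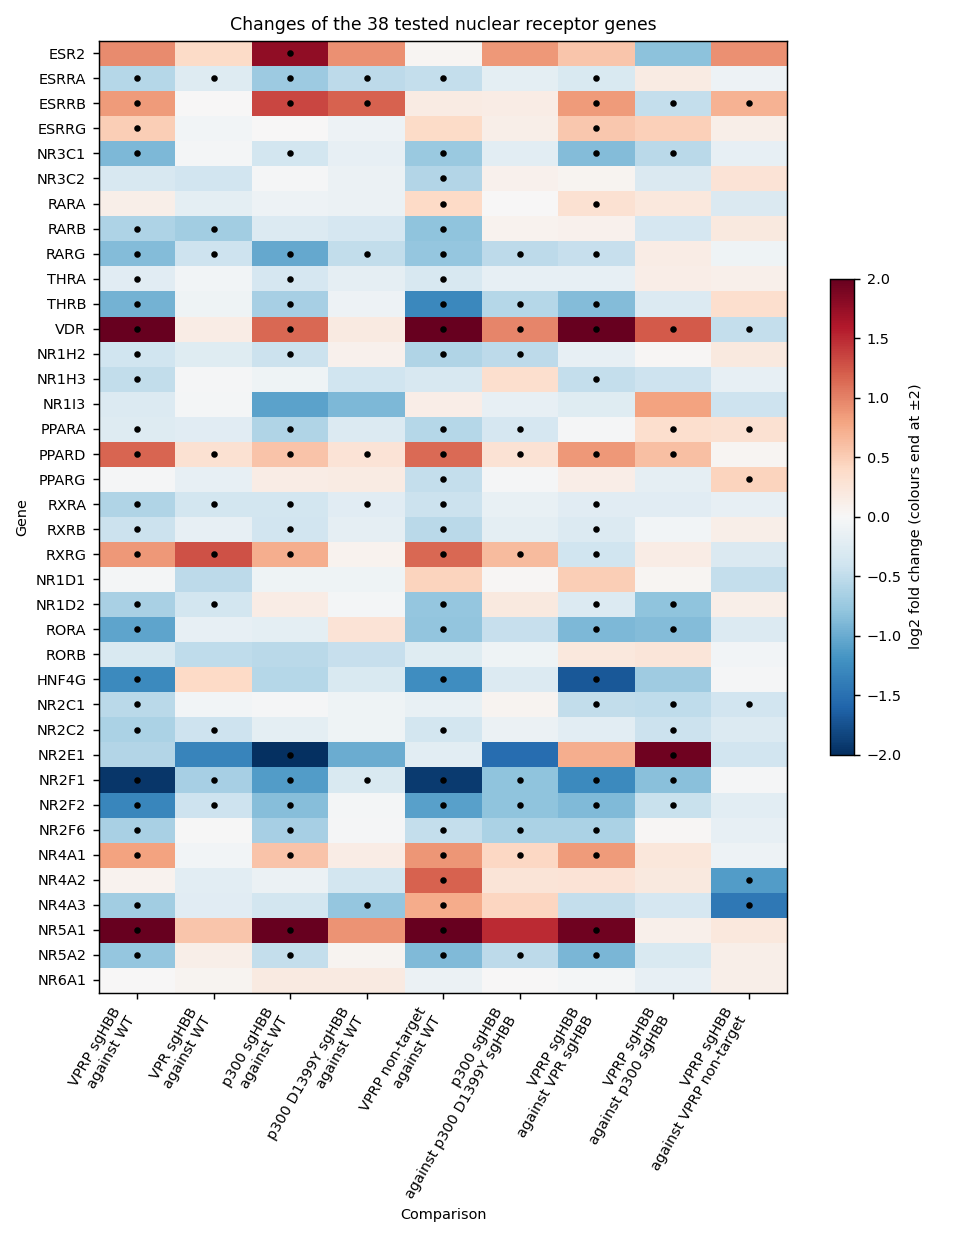
Log2 fold change of each tested member in the 9 comparisons (rows are genes by subfamily, columns are comparisons; dots mark an adjusted p under 0.05). Blue, lower in the group named first, fills most of the columns for VPRP sgHBB and VPRP non-target over WT, with VDR and PPARD standing out in red.

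VDR, the receptor for the active form of vitamin D, had the largest called rise over WT of the 38 members in VPRP non-target cells, and in VPRP sgHBB cells only the sparse NR5A1 had a larger one. It had 56.6 and 62.5 CPM with VPRP sgHBB, 11.3 and 14.4 CPM with VPR sgHBB, 25.2 and 25.9 CPM with p300 sgHBB, 12.8 and 13.3 CPM with p300 D1399Y sgHBB, 82.2 and 82.5 CPM in VPRP non-target cells, and 10.7 and 12.3 CPM in WT. The VPRP and p300 libraries all lay above those of VPR, D1399Y and WT. VDR rose 5.18-fold with VPRP sgHBB (log2 2.37, SE 0.112, adjusted p = 6.68e-19), 2.22-fold with p300 sgHBB (log2 1.15, SE 0.119, adjusted p = 9.25e-10) and 7.16-fold in VPRP non-target cells (log2 2.84, SE 0.11, adjusted p = 2.96e-21). It did not pass the test with VPR sgHBB (log2 0.15, SE 0.131, adjusted p = 0.431) or p300 D1399Y sgHBB (log2 0.18, SE 0.13, adjusted p = 0.322). Between fusions, it was higher with p300 than with p300 D1399Y (log2 0.97, SE 0.116, adjusted p = 6.58e-08) and higher with VPRP sgHBB than with VPR sgHBB (log2 2.22, SE 0.11, adjusted p = 6.45e-18). With the VPRP fusion it was lower under the HBB guide than under the non-target guide (log2 -0.47, SE 0.0917, adjusted p = 0.000174). EP300, MAGEA10 and TWIST2 also differed between these groups, so the part of the guide cannot be told apart from those differences. CYP24A1, the vitamin D degrading enzyme and a classic VDR target, was at 0 to 0.277 CPM in every library and was not tested.

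**Figure D3:**
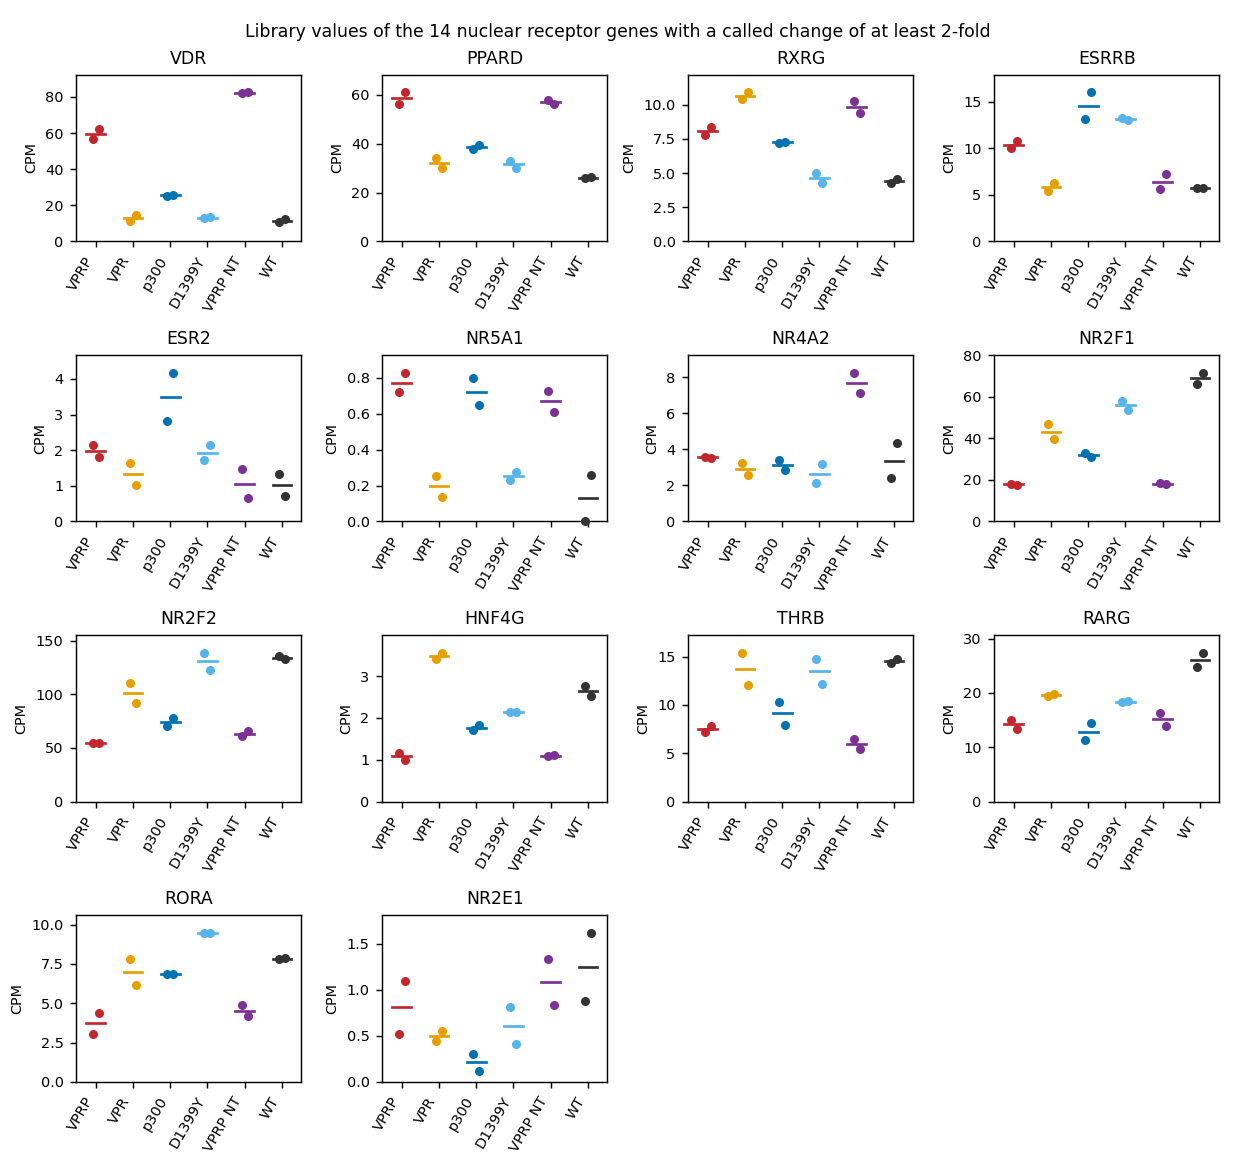
Level of the 14 named members in every library (CPM on a linear axis that starts at 0, each panel with its own scale; points are libraries, short horizontal lines the mean of the 2 libraries of a group; D1399Y is the p300 D1399Y fusion and NT the non-target guide). VDR and PPARD are highest in both VPRP groups, and NR2F1 and NR2F2 are lowest there.

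Several retinoid and thyroid hormone receptors were lower than in WT. RARG, a retinoic acid receptor, had 15.1 and 13.4 CPM with VPRP sgHBB, 19.5 and 19.8 CPM with VPR sgHBB, 11.3 and 14.4 CPM with p300 sgHBB, 18.3 and 18.5 CPM with p300 D1399Y sgHBB, 16.3 and 14 CPM in VPRP non-target cells, and 24.7 and 27.4 CPM in WT. Both WT libraries lay above all fusion libraries. It fell by 0.87 on the log2 scale with VPRP sgHBB (SE 0.129, adjusted p = 5.96e-07), by 1.02 with p300 sgHBB (SE 0.131, adjusted p = 8.20e-08), by 0.50 with p300 D1399Y sgHBB (SE 0.127, adjusted p = 0.00248) and by 0.78 with VPRP non-target (SE 0.128, adjusted p = 3.15e-06). The call with VPR sgHBB (log2 -0.41, adjusted p = 0.0163) was lost without either VPR sgHBB library or WT replicate 2, with an adjusted p of up to 0.158. THRB, a thyroid hormone receptor, had 7.24 and 7.84 CPM with VPRP sgHBB, 15.4 and 12.1 CPM with VPR sgHBB, 10.3 and 7.95 CPM with p300 sgHBB, 14.8 and 12.2 CPM with p300 D1399Y sgHBB, 6.44 and 5.49 CPM in VPRP non-target cells, and 14.3 and 14.7 CPM in WT. The VPRP and p300 libraries lay under those of WT, and the VPR and D1399Y libraries spanned them. THRB fell by 0.94 with VPRP sgHBB (SE 0.166, adjusted p = 9.82e-06), by 0.67 with p300 sgHBB (SE 0.162, adjusted p = 0.000926) and by 1.29 with VPRP non-target (SE 0.171, adjusted p = 6.87e-08). RARB fell by 0.61, 0.69 and 0.80 on the log2 scale with VPRP sgHBB, VPR sgHBB and VPRP non-target, and overlaps TOP2B in the annotation, so without a stated strand setting its reads are uncertain. RARA passed the test over WT with VPRP non-target alone (log2 0.40, adjusted p = 0.00313), and lost it without VPRP non-target replicate 1 or WT replicate 2 (highest adjusted p = 0.152).

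The RXR genes encode the partner with which the thyroid, retinoid, vitamin D, PPAR and liver X receptors bind DNA as heterodimers, and their 3 members did not move together. RXRG had 7.76 and 8.34 CPM with VPRP sgHBB, 10.4 and 10.9 CPM with VPR sgHBB, 7.22 and 7.3 CPM with p300 sgHBB, 4.97 and 4.29 CPM with p300 D1399Y sgHBB, 10.3 and 9.36 CPM in VPRP non-target cells, and 4.3 and 4.53 CPM in WT. All groups but D1399Y lay above WT. RXRG rose 1.82-fold with VPRP sgHBB (log2 0.87, SE 0.186, adjusted p = 0.000152), 2.41-fold with VPR sgHBB (log2 1.27, SE 0.182, adjusted p = 3.29e-06), 1.64-fold with p300 sgHBB (log2 0.72, SE 0.189, adjusted p = 0.00209) and 2.22-fold in VPRP non-target cells (log2 1.15, SE 0.182, adjusted p = 1.53e-06). It did not pass the test with p300 D1399Y sgHBB (log2 0.07, SE 0.202, adjusted p = 0.823). RXRA had 43.2 and 43.3 CPM with VPRP sgHBB, 53.1 and 48 CPM with VPR sgHBB, 46.2 and 54.8 CPM with p300 sgHBB, 55.7 and 56.2 CPM with p300 D1399Y sgHBB, 47.1 and 50 CPM in VPRP non-target cells, and 64 and 66.9 CPM in WT. All fusion libraries lay under both WT libraries. RXRA fell by 0.60 with VPRP sgHBB (SE 0.0891, adjusted p = 5.89e-07), by 0.37 with VPR sgHBB (SE 0.0886, adjusted p = 0.00196) and by 0.43 with VPRP non-target (SE 0.0881, adjusted p = 8.22e-05). RXRB fell by 0.43, 0.38 and 0.54 with VPRP sgHBB, p300 sgHBB and VPRP non-target. The direction of RXRA and RXRB in these comparisons was the same under every scaling tried. RXRA was also called lower with p300 sgHBB (log2 -0.37, SE 0.088, adjusted p = 0.000685) and p300 D1399Y sgHBB (log2 -0.23, SE 0.0877, adjusted p = 0.0488). Whether these further RXRA calls held in the alternatives is not given here.

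Among the lipid and sterol sensors, PPARD was the one member called higher over WT. PPARD, a fatty acid sensor found in most tissues, had 56.2 and 61 CPM with VPRP sgHBB, 34.2 and 30.2 CPM with VPR sgHBB, 37.7 and 39.5 CPM with p300 sgHBB, 33.1 and 29.9 CPM with p300 D1399Y sgHBB, 57.7 and 56.1 CPM in VPRP non-target cells, and 25.8 and 26.3 CPM in WT. All fusion libraries lay above both WT libraries, and the VPRP libraries above the rest. It rose 2.25-fold with VPRP sgHBB (log2 1.17, SE 0.0945, adjusted p = 9.95e-13), 1.48-fold with p300 sgHBB (log2 0.57, SE 0.0971, adjusted p = 1.16e-05) and 2.18-fold in VPRP non-target cells (log2 1.13, SE 0.0945, adjusted p = 2.56e-12). The calls with VPR sgHBB (log2 0.31, adjusted p = 0.0218) and p300 D1399Y sgHBB (log2 0.28, adjusted p = 0.0318) were lost under DESeq2 and without WT replicate 1 or WT replicate 2, among other left-out libraries, with an adjusted p of up to 0.21 and 0.38. With the VPRP fusion, the HBB guide and the non-target guide did not differ past the threshold (log2 0.04, SE 0.0874, adjusted p = 0.75). PPARA fell with p300 sgHBB (log2 -0.60, adjusted p = 2.96e-05) and VPRP non-target (log2 -0.57, adjusted p = 3.49e-05). PPARG, the fat cell receptor, fell in VPRP non-target cells (log2 -0.48, adjusted p = 0.000273), and did not pass the test over WT in the other groups. NR1H2, a liver X receptor, was lower with p300 than with p300 D1399Y (log2 -0.52, SE 0.115, adjusted p = 0.000777) and lower in VPRP non-target cells than in WT (log2 -0.60, adjusted p = 4.08e-05).

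The COUP transcription factors NR2F1 and NR2F2, orphan receptors that mostly repress and that act in neural and vascular development, fell in both VPRP groups and with VPR and p300. NR2F1 had 18.1 and 17.8 CPM with VPRP sgHBB, 46.7 and 39.7 CPM with VPR sgHBB, 32.9 and 30.9 CPM with p300 sgHBB, 58.2 and 53.8 CPM with p300 D1399Y sgHBB, 18.5 and 18 CPM in VPRP non-target cells, and 66.1 and 71.7 CPM in WT. The groups did not overlap except for the 2 VPRP groups. It fell 3.84-fold with VPRP sgHBB (log2 -1.94, SE 0.1, adjusted p = 7.70e-18), 1.59-fold with VPR sgHBB (log2 -0.67, SE 0.0919, adjusted p = 1.48e-06), 2.16-fold with p300 sgHBB (log2 -1.11, SE 0.0938, adjusted p = 9.90e-12) and 3.77-fold in VPRP non-target cells (log2 -1.92, SE 0.0994, adjusted p = 8.92e-18). With p300 D1399Y sgHBB the call (log2 -0.30, adjusted p = 0.0108) was lost without p300 D1399Y sgHBB replicate 2 or WT replicate 2, with an adjusted p of up to 0.144. NR2F2 had 54.4 and 55 CPM with VPRP sgHBB, 110.1 and 92.2 CPM with VPR sgHBB, 70.7 and 78.4 CPM with p300 sgHBB, 139 and 123 CPM with p300 D1399Y sgHBB, 61.3 and 65.7 CPM in VPRP non-target cells, and 136 and 133 CPM in WT. The D1399Y libraries spanned those of WT, and all other fusion libraries lay under them. NR2F2 fell 2.45-fold with VPRP sgHBB (log2 -1.30, SE 0.0857, adjusted p = 6.13e-15), 1.33-fold with VPR sgHBB (log2 -0.41, SE 0.0826, adjusted p = 0.000358), 1.80-fold with p300 sgHBB (log2 -0.85, SE 0.0837, adjusted p = 3.35e-10) and 2.12-fold in VPRP non-target cells (log2 -1.08, SE 0.0845, adjusted p = 4.46e-13). With p300 D1399Y sgHBB it did not pass the test (log2 -0.04, SE 0.0815, adjusted p = 0.78). The annotation has antisense genes over both loci (NR2F1-AS1 and NR2F2-AS1), and with the strand setting not given their reads cannot be told apart from those of the receptors.

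NR2F6, a relative of the COUP factors, was lower in the VPRP and p300 groups. It had 65.6 and 64.3 CPM with VPRP sgHBB, 102 and 100.3 CPM with VPR sgHBB, 63.2 and 64.4 CPM with p300 sgHBB, 98.8 and 100.4 CPM with p300 D1399Y sgHBB, 74.7 and 71.2 CPM in VPRP non-target cells, and 104 and 99.4 CPM in WT. The VPRP and p300 libraries lay between 63.2 and 74.7 CPM and all others between 98.8 and 104 CPM. NR2F6 fell with VPRP sgHBB (log2 -0.65, SE 0.0745, adjusted p = 3.73e-09), with p300 sgHBB (log2 -0.67, SE 0.0746, adjusted p = 4.13e-09) and in VPRP non-target cells (log2 -0.48, SE 0.0738, adjusted p = 1.05e-06). It did not pass the test with VPR sgHBB (log2 -0.01, SE 0.073, adjusted p = 0.949) or p300 D1399Y sgHBB (log2 -0.03, SE 0.0729, adjusted p = 0.799).

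Of the rest of that subfamily, HNF4G, a relative of the liver factor HNF4A, had 1.17 and 0.994 CPM with VPRP sgHBB, 3.42 and 3.56 CPM with VPR sgHBB, 1.71 and 1.83 CPM with p300 sgHBB, 2.14 and 2.14 CPM with p300 D1399Y sgHBB, 1.09 and 1.11 CPM in VPRP non-target cells, and 2.76 and 2.52 CPM in WT. VPR sgHBB lay above WT and all other fusion libraries lay under it. HNF4G fell 2.43-fold with VPRP sgHBB (log2 -1.28, SE 0.358, adjusted p = 0.00252) and 2.39-fold in VPRP non-target cells (log2 -1.25, SE 0.355, adjusted p = 0.00279). NR2C1 and NR2C2 encode TR2 and TR4, which repress the embryonic and fetal globin genes in erythroid cells. NR2C1 had 15.7 and 16.9 CPM with VPRP sgHBB, 22.3 and 23.5 CPM with VPR sgHBB, 24.8 and 21.6 CPM with p300 sgHBB, 23.3 and 21.2 CPM with p300 D1399Y sgHBB, 21 and 21.6 CPM in VPRP non-target cells, and 23 and 24.4 CPM in WT. Its VPRP sgHBB libraries lay under every other library, and of the 5 comparisons with WT it was called in that of VPRP sgHBB (log2 -0.54, SE 0.117, adjusted p = 0.000183). NR2C2 was called lower with VPRP sgHBB (log2 -0.63, SE 0.135, adjusted p = 0.00016), with VPR sgHBB (log2 -0.42, SE 0.134, adjusted p = 0.0202) and in VPRP non-target cells (log2 -0.36, SE 0.132, adjusted p = 0.0194). The VPR sgHBB call was lost without VPR sgHBB replicate 2 or WT replicate 1 (adjusted p up to 0.148), and the VPRP non-target call without VPRP non-target replicate 2 or WT replicate 1 (up to 0.118). NR2E1, the neural stem cell receptor TLX, had 0.522 and 1.1 CPM with VPRP sgHBB, 0.443 and 0.547 CPM with VPR sgHBB, 0.306 and 0.118 CPM with p300 sgHBB, 0.809 and 0.415 CPM with p300 D1399Y sgHBB, 1.34 and 0.831 CPM in VPRP non-target cells, and 0.874 and 1.62 CPM in WT. Both p300 libraries lay under those of WT. The difference was called (log2 -2.53, SE 0.689, adjusted p = 0.00288), but not without p300 sgHBB replicate 2 or WT replicate 2, where the adjusted p was up to 0.07.

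Among the estrogen-related receptors, which bind DNA without a known natural steroid ligand, ESRRB and ESRRA moved in opposite directions. ESRRB, a factor of pluripotent cells, had 9.98 and 10.8 CPM with VPRP sgHBB, 5.38 and 6.23 CPM with VPR sgHBB, 13.1 and 16 CPM with p300 sgHBB, 13.2 and 13 CPM with p300 D1399Y sgHBB, 5.65 and 7.2 CPM in VPRP non-target cells, and 5.78 and 5.76 CPM in WT. The VPRP sgHBB, p300 and D1399Y libraries all lay above the rest, which is the division of groups seen for MAGEA10 and TWIST2, and the part of that division in the result was not tested. ESRRB rose 1.81-fold with VPRP sgHBB (log2 0.85, SE 0.175, adjusted p = 8.72e-05), 2.52-fold with p300 sgHBB (log2 1.34, SE 0.169, adjusted p = 6.13e-08) and 2.27-fold with p300 D1399Y sgHBB (log2 1.18, SE 0.172, adjusted p = 1.71e-06). It did not pass the test with VPR sgHBB (log2 0.01, SE 0.191, adjusted p = 0.997), in VPRP non-target cells (log2 0.16, SE 0.185, adjusted p = 0.47), or between p300 and p300 D1399Y (log2 0.15, SE 0.152, adjusted p = 0.478). ESRRA, a regulator of mitochondrial genes, had 49.5 and 46.8 CPM with VPRP sgHBB, 62.4 and 56.8 CPM with VPR sgHBB, 38.6 and 47.2 CPM with p300 sgHBB, 48.1 and 50.6 CPM with p300 D1399Y sgHBB, 49.9 and 53.1 CPM in VPRP non-target cells, and 71.4 and 71.3 CPM in WT. All fusion libraries lay under both WT libraries. ESRRA fell with VPRP sgHBB (log2 -0.57, SE 0.0897, adjusted p = 1.67e-06), p300 sgHBB (log2 -0.73, SE 0.0905, adjusted p = 3.5e-08) and p300 D1399Y sgHBB (log2 -0.53, SE 0.0899, adjusted p = 1.89e-05), and in VPRP non-target cells (log2 -0.47, SE 0.089, adjusted p = 2.83e-05). Its call with VPR sgHBB (log2 -0.26, adjusted p = 0.0291) was lost with upper-quartile factors and without VPR sgHBB replicate 2, WT replicate 1 or WT replicate 2, with an adjusted p of up to 0.212. ESR2, estrogen receptor beta, had 2.15 and 1.82 CPM with VPRP sgHBB, 1.65 and 1.03 CPM with VPR sgHBB, 2.82 and 4.18 CPM with p300 sgHBB, 1.73 and 2.14 CPM with p300 D1399Y sgHBB, 1.46 and 0.665 CPM in VPRP non-target cells, and 1.34 and 0.712 CPM in WT. Its p300 libraries were the highest, and among the 9 comparisons it was called in p300 sgHBB over WT (log2 1.77, SE 0.411, adjusted p = 0.000593). Between p300 and p300 D1399Y it did not pass the test (log2 0.86, SE 0.372, adjusted p = 0.0783). The VPRP sgHBB, p300 and D1399Y libraries, at 1.73 to 4.18 CPM, lay above the rest, at 0.665 to 1.65 CPM. This is again the division seen for MAGEA10 and TWIST2, and its part in the ESR2 result was not tested.

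The glucocorticoid receptor NR3C1 had 18.1 and 20.3 CPM with VPRP sgHBB, 32.5 and 37.7 CPM with VPR sgHBB, 26.4 and 29.5 CPM with p300 sgHBB, 32.5 and 32 CPM with p300 D1399Y sgHBB, 22.6 and 20.4 CPM in VPRP non-target cells, and 37.8 and 34.1 CPM in WT. The VPRP libraries of both guides were the lowest. NR3C1 fell with VPRP sgHBB (log2 -0.90, SE 0.11, adjusted p = 1.36e-08) and in VPRP non-target cells (log2 -0.74, SE 0.108, adjusted p = 4.16e-07). The call with p300 sgHBB (log2 -0.36, adjusted p = 0.00536) was lost without p300 sgHBB replicate 1 or WT replicate 1, with an adjusted p of up to 0.088. NR3C2, the mineralocorticoid receptor, was called over WT in VPRP non-target cells alone (log2 -0.59, SE 0.145, adjusted p = 0.000765).

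Of the clock receptors, NR1D1 and NR1D2 repress and RORA and RORB activate transcription through a shared response element, as in the clock gene ARNTL. NR1D2 had 47.4 and 50.4 CPM with VPRP sgHBB, 62.7 and 56.1 CPM with VPR sgHBB, 88.4 and 81.7 CPM with p300 sgHBB, 76 and 73.4 CPM with p300 D1399Y sgHBB, 45.5 and 44.8 CPM in VPRP non-target cells, and 76.2 and 77.3 CPM in WT. The libraries of the fusions that carry VPR lay under those of WT, and the p300 libraries above. NR1D2 fell with VPRP sgHBB (log2 -0.65, SE 0.0824, adjusted p = 2.72e-08), with VPR sgHBB (log2 -0.37, SE 0.0817, adjusted p = 0.000957) and in VPRP non-target cells (log2 -0.77, SE 0.0827, adjusted p = 9.27e-10), and was lower with VPRP sgHBB than with p300 sgHBB (log2 -0.80, SE 0.0816, adjusted p = 2.25e-09). With p300 sgHBB over WT it did not pass the test. RORA had 3.07 and 4.36 CPM with VPRP sgHBB, 7.79 and 6.16 CPM with VPR sgHBB, 6.85 and 6.89 CPM with p300 sgHBB, 9.48 and 9.48 CPM with p300 D1399Y sgHBB, 4.86 and 4.21 CPM in VPRP non-target cells, and 7.8 and 7.89 CPM in WT. It was lowest in both VPRP groups, falling 2.09-fold with VPRP sgHBB (log2 -1.06, SE 0.205, adjusted p = 3.77e-05) and 1.73-fold in VPRP non-target cells (log2 -0.79, SE 0.199, adjusted p = 0.000901). NR1D1, RORB, NR1I3 and NR6A1 were called in none of the 9 comparisons. THRA, NR1H3 and ESRRG had calls, each of them lost in at least 1 alternative. NR1D1 overlaps THRA in the annotation, so their reads are uncertain without a stated strand setting. Other members overlap genes there too, among them ESRRA (TRMT112), NR1D2 (NKIRAS1), NR2C2 (MRPS25) and NR4A1 (NR4A1AS). THRB and RORA overlap antisense genes (THRB-AS1 and RORA-AS1, among others), and the same limit holds for all of these.

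The NR4A genes encode orphan receptors that are induced as immediate early genes. NR4A1 had 27.7 and 25.7 CPM with VPRP sgHBB, 15.1 and 14.5 CPM with VPR sgHBB, 23.3 and 22.2 CPM with p300 sgHBB, 16.1 and 18.1 CPM with p300 D1399Y sgHBB, 28.7 and 28.4 CPM in VPRP non-target cells, and 12.4 and 18.2 CPM in WT. The VPRP and p300 libraries lay above all others. NR4A1 rose with VPRP sgHBB (log2 0.80, SE 0.131, adjusted p = 3.41e-06) and in VPRP non-target cells (log2 0.89, SE 0.13, adjusted p = 3.77e-07), and its call with p300 sgHBB (log2 0.57, adjusted p = 0.000659) was lost without WT replicate 1 (adjusted p = 0.0824). NR4A2 had 3.59 and 3.54 CPM with VPRP sgHBB, 3.23 and 2.6 CPM with VPR sgHBB, 3.43 and 2.83 CPM with p300 sgHBB, 2.14 and 3.18 CPM with p300 D1399Y sgHBB, 8.26 and 7.15 CPM in VPRP non-target cells, and 2.42 and 4.33 CPM in WT. The non-target libraries were the ones above the WT range. NR4A2 rose 2.27-fold in VPRP non-target cells (log2 1.18, SE 0.254, adjusted p = 0.000154), and did not pass the test with VPRP sgHBB (log2 0.07, SE 0.277, adjusted p = 0.841). It was lower under the HBB guide than under the non-target guide (log2 -1.11, SE 0.249, adjusted p = 0.000828). NR4A3 was also lower under the HBB guide (log2 -1.43, SE 0.273, adjusted p = 0.000114). As for VDR, the part of the guide cannot be told apart from the other differences between these groups. NR5A2 (LRH-1), which acts in liver, gut and early embryo, had 4.5 and 4.31 CPM with VPRP sgHBB, 8.49 and 8.01 CPM with VPR sgHBB, 5.32 and 5.59 CPM with p300 sgHBB, 7.4 and 8.44 CPM with p300 D1399Y sgHBB, 4.74 and 3.44 CPM in VPRP non-target cells, and 6.65 and 8.47 CPM in WT. The VPRP libraries of both guides lay under WT, with a fall with VPRP sgHBB (log2 -0.78, SE 0.204, adjusted p = 0.00133) and in VPRP non-target cells (log2 -0.89, SE 0.205, adjusted p = 0.000334).

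The fusions were also compared with each other. p300 sgHBB differed from p300 D1399Y sgHBB in 12 of the 38 tested members (against 30.4% of all genes). Of the 38, 4 (10.5%) were higher and 8 (21.1%) lower, against 15.4% and 15.0% of all genes. Called changes of at least 2-fold were 0 of the 38, against 5.47% of all genes. There were 7 calls without p300 sgHBB replicate 1. VDR (higher) and NR1H2, NR2F1, NR2F2 and NR2F6 (lower) kept this call in each of the 19 alternatives. NR2F1 (log2 -0.81, SE 0.0945, adjusted p = 3.96e-08), NR2F2 (log2 -0.81, SE 0.0837, adjusted p = 3.39e-09) and NR2F6 (log2 -0.64, SE 0.0745, adjusted p = 3.8e-08) were all lower with the active form. Because EP300 reads also differed between these groups, activity and amount of the fusion cannot be told apart. VPRP sgHBB differed from VPR sgHBB in 23 of the 38 tested members (against 49.8% of all genes). Of the 38, 7 (18.4%) were higher and 16 (42.1%) lower, against 24.7% and 25.1% of all genes. Called changes of at least 2-fold were 4 of the 38, against 13.8% of all genes. There were 14 calls without VPRP sgHBB replicate 2. ESRRB, NR4A1, PPARD and VDR (higher) and HNF4G, NR2C1, NR2F1, NR2F2, NR2F6, NR3C1, NR5A2, RORA and THRB (lower) kept this call in each alternative. The higher and 2-fold counts include NR5A1, whose call supports nothing. EP300, MAGEA10 and TWIST2 also differed between VPRP sgHBB and VPR sgHBB, so the p300 part of the fusion cannot be told apart from that division of groups. VPRP sgHBB differed from p300 sgHBB in 12 of the 38 tested members (against 27.9% of all genes). Of the 38, 4 (10.5%) were higher and 8 (21.1%) lower, against 14.3% and 13.7% of all genes. Called changes of at least 2-fold were 2 of the 38, against 4.62% of all genes. VDR (log2 1.22, SE 0.0998, adjusted p = 1.28e-11) and PPARD (log2 0.60, SE 0.0901, adjusted p = 3.31e-06) were higher with VPRP, and NR2F1 (log2 -0.83, SE 0.104, adjusted p = 1.63e-07) was lower. EP300 reads were also lower with VPRP sgHBB than with p300 sgHBB (log2 -1.58), so the VPR part and the amount of the fusion cannot be told apart. VPRP sgHBB differed from VPRP non-target in 7 of the 38 tested members (against 29.3% of all genes). Of the 38, 3 (7.89%) were higher and 4 (10.5%) lower, against 14.9% and 14.4% of all genes. Called changes of at least 2-fold were 2 of the 38, against 5.77% of all genes. VDR, NR4A2 and NR4A3, all lower with the HBB guide, kept the call in each alternative. EP300, MAGEA10 and TWIST2 also differed between these groups. In every result between the guides, guide, fusion amount and that division of groups cannot be told apart. NR2F1 (log2 -0.02, SE 0.11, adjusted p = 0.896) and NR2F2 (log2 -0.21, SE 0.0878, adjusted p = 0.0632) did not pass the test between the guides. Over the 9 comparisons 148 member calls were made, and 95 of them held in every alternative.

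Coregulators, the proteins that receptors recruit, were counted as a list. Of 27 tested over WT, 4 rose and 17 fell with VPRP sgHBB, 1 rose and 12 fell with VPR sgHBB, 4 rose and 14 fell with p300 sgHBB, 6 rose and 7 fell with p300 D1399Y sgHBB, and 4 rose and 20 fell in VPRP non-target cells. GPS2, which is among them, held 4 and 6 counts in WT and 16 and 21 in VPRP non-target cells. It entered the test through fusion libraries, so a higher call of GPS2 supports nothing. Over all genes, 31.1% were called higher and 28.0% lower with VPRP sgHBB, 13.8% and 11.5% with VPR sgHBB, 24.5% and 21.6% with p300 sgHBB, 15.7% and 14.5% with p300 D1399Y sgHBB, and 31.2% and 28.5% in VPRP non-target cells. Their median log2 fold change was -0.44 with VPRP sgHBB, -0.16 with VPR sgHBB, -0.31 with p300 sgHBB, -0.11 with p300 D1399Y sgHBB and -0.58 in VPRP non-target cells, beside the all-gene medians given above. TBL1X, a subunit of a corepressor complex, had 44.2 and 48.1 CPM with VPRP sgHBB, 82.2 and 71.4 CPM with VPR sgHBB, 79.1 and 79.3 CPM with p300 sgHBB, 97 and 87.9 CPM with p300 D1399Y sgHBB, 41.6 and 43.7 CPM in VPRP non-target cells, and 132 and 132 CPM in WT. It fell 2.86-fold with VPRP sgHBB (log2 -1.51, SE 0.0828, adjusted p = 3.73e-17) and 3.09-fold in VPRP non-target cells (log2 -1.63, SE 0.0832, adjusted p = 6e-18). MED12, of the Mediator kinase module, fell in VPRP non-target cells (log2 -1.21, SE 0.0925, adjusted p = 2.69e-13). The p160 coactivator NCOA3 was higher in VPRP non-target cells (log2 1.02, SE 0.0896, adjusted p = 8.19e-12) and with VPRP sgHBB (log2 0.80, SE 0.0905, adjusted p = 2.39e-09). Its other fusion libraries also lay above the 28.6 and 29.2 CPM of WT. They had 32.5 and 32.6 CPM with VPR sgHBB, 38.3 and 37.5 with p300 sgHBB, and 38.3 and 36.4 with p300 D1399Y sgHBB.

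**Figure D4:**
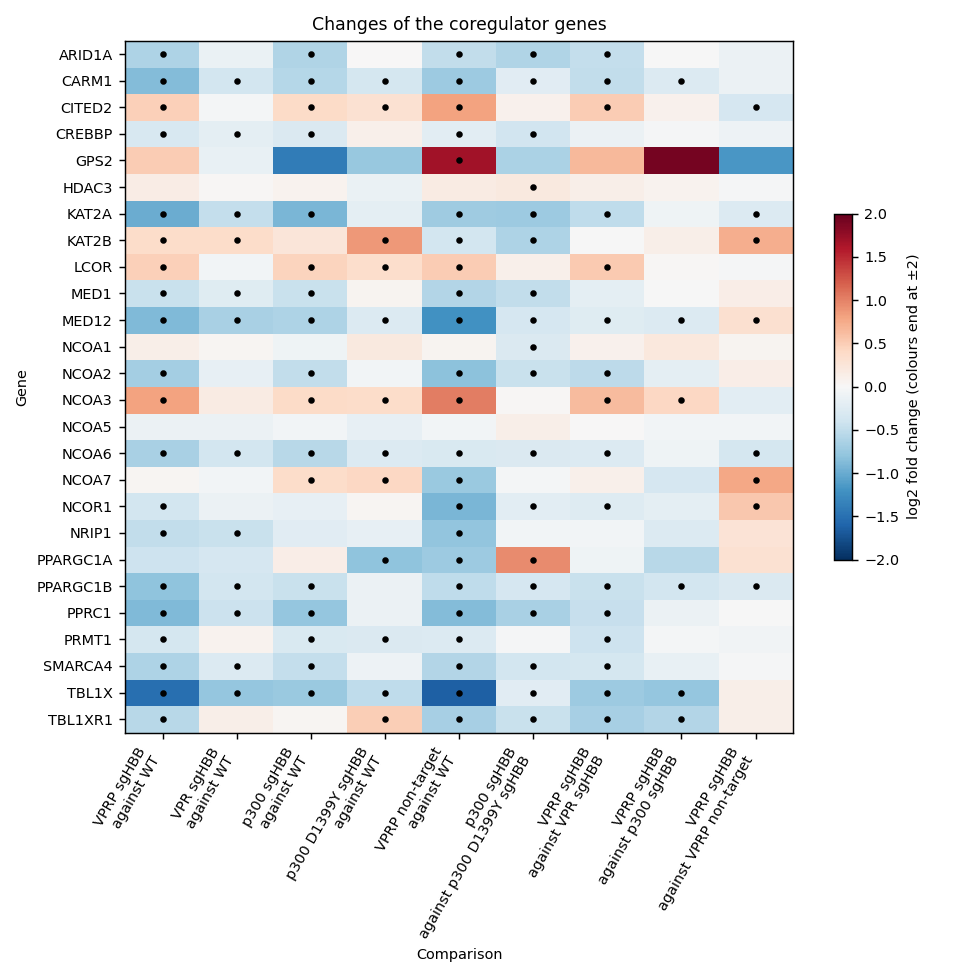
Log2 fold change of 26 tested coregulator genes in the 9 comparisons (rows are genes, columns are comparisons, colours end at -2 and 2; dots mark an adjusted p under 0.05). Lower values fill most of the columns for both VPRP groups over WT, and NCOA3 is among the few higher there.

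Target genes known for each receptor were counted as lists. Each count over WT stands beside these shares of all genes called higher and lower: 31.1% and 28.0% with VPRP sgHBB, 13.8% and 11.5% with VPR sgHBB, 24.5% and 21.6% with p300 sgHBB, 15.7% and 14.5% with p300 D1399Y sgHBB, and 31.2% and 28.5% in VPRP non-target cells. With 8 to 14 genes in a list, the counts describe these genes and say nothing particular to a receptor. Some target genes held under 10 counts in both WT libraries and so entered the test through fusion libraries, so that a higher call among them supports nothing. These were 3 of the PPAR targets, 1 of the retinoic acid receptor targets and 1 of the estrogen receptor targets. Of 11 tested glucocorticoid receptor targets, 6 rose and 4 fell with VPRP sgHBB, 0 rose and 3 fell with VPR sgHBB, 5 rose and 2 fell with p300 sgHBB, 2 rose and 3 fell with p300 D1399Y sgHBB, and 6 rose and 3 fell in VPRP non-target cells. SGK1, a kinase induced by glucocorticoids, had 42.3 and 38.2 CPM with VPRP sgHBB, 2.34 and 2.53 CPM with VPR sgHBB, 12.4 and 10.5 CPM with p300 sgHBB, 4.8 and 4.01 CPM with p300 D1399Y sgHBB, 46.5 and 45.5 CPM in VPRP non-target cells, and 2.08 and 2.85 CPM in WT. The VPRP libraries were the highest, the p300 libraries next, and the VPR libraries lay within the WT range. SGK1 rose 16.2-fold with VPRP sgHBB (log2 4.02, SE 0.162, adjusted p = 7.98e-21) and 4.63-fold with p300 sgHBB (log2 2.21, SE 0.184, adjusted p = 7.22e-12), and did not pass the test with VPR sgHBB (log2 -0.02, SE 0.246, adjusted p = 0.968). TSC22D3 (GILZ), another gene induced by glucocorticoids, had 117 and 102 CPM with VPRP sgHBB, 157 and 167 CPM with VPR sgHBB, 356 and 369.7 CPM with p300 sgHBB, 311 and 309 CPM with p300 D1399Y sgHBB, 49 and 43.8 CPM in VPRP non-target cells, and 460.0 and 448 CPM in WT. Both WT libraries were above every fusion library. TSC22D3 fell 4.15-fold with VPRP sgHBB (log2 -2.05, SE 0.075, adjusted p = 7.03e-22) and 9.78-fold in VPRP non-target cells (log2 -3.29, SE 0.0807, adjusted p = 1.46e-26). ERRFI1, an inhibitor of EGF receptor signalling, rose in VPRP non-target cells (log2 2.19, SE 0.0843, adjusted p = 2.47e-21), as did the cell cycle inhibitor CDKN1C (log2 1.20, SE 0.193, adjusted p = 2.06e-06).

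Of 8 tested retinoic acid receptor targets, 4 rose and 2 fell with VPRP sgHBB, 5 rose and 0 fell with VPR sgHBB, 4 rose and 0 fell with p300 sgHBB, 5 rose and 0 fell with p300 D1399Y sgHBB, and 5 rose and 2 fell in VPRP non-target cells. TGM2, a transglutaminase, had 33.4 and 35.5 CPM with VPRP sgHBB, 7.03 and 5.68 CPM with VPR sgHBB, 15.4 and 16 CPM with p300 sgHBB, 8.5 and 8.3 CPM with p300 D1399Y sgHBB, 26.7 and 23.5 CPM in VPRP non-target cells, and 3.29 and 3.49 CPM in WT. WT was lowest, and TGM2 rose 10.1-fold with VPRP sgHBB (log2 3.34, SE 0.154, adjusted p = 3.63e-19). STRA6, the receptor for the retinol carrier, had 17 and 37 counts with p300 sgHBB and 2 and 3 counts in WT, and passed the filter only through fusion libraries. DHRS3, which reduces retinal (log2 -2.06, SE 0.205, adjusted p = 1.41e-10), and CYP26A1, which degrades retinoic acid (log2 -1.21, SE 0.242, adjusted p = 5.75e-05), fell in VPRP non-target cells. DHRS3 lay above the 10.8 and 11.2 CPM of WT with p300 sgHBB (15.1 and 14.8 CPM) and p300 D1399Y sgHBB (16.9 and 19.6 CPM). With VPRP sgHBB it lay under WT (9.33 and 5.91 CPM), and the VPR sgHBB libraries spanned WT (10.6 and 11.4 CPM).

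Of 9 tested liver X receptor targets, 2 rose and 4 fell with VPRP sgHBB, 2 rose and 1 fell with VPR sgHBB, 2 rose and 4 fell with p300 sgHBB, 2 rose and 5 fell with p300 D1399Y sgHBB, and 3 rose and 3 fell in VPRP non-target cells. The lipid carrier APOE had 27.4 and 24.4 CPM with VPRP sgHBB, 33.8 and 30.1 CPM with VPR sgHBB, 14.1 and 14.1 CPM with p300 sgHBB, 31.2 and 32.4 CPM with p300 D1399Y sgHBB, 12.5 and 12.1 CPM in VPRP non-target cells, and 5.51 and 7.31 CPM in WT. WT was lowest, with calls that included p300 sgHBB (log2 1.13, SE 0.148, adjusted p = 1.14e-07). The sterol exporter ABCG1 fell with p300 sgHBB (log2 -1.37, SE 0.135, adjusted p = 2.89e-10), as did the lipid synthesis genes SREBF1 (log2 -0.83, SE 0.0851, adjusted p = 8.19e-10) and SCD (log2 -0.75, SE 0.071, adjusted p = 1.28e-10). Of 10 tested PPAR targets, 4 rose and 0 fell with VPRP sgHBB, 2 rose and 0 fell with VPR sgHBB, 3 rose and 0 fell with p300 sgHBB, 3 rose and 0 fell with p300 D1399Y sgHBB, and 5 rose and 2 fell in VPRP non-target cells. ACSL1, which activates fatty acids, rose with p300 sgHBB (log2 0.96, SE 0.0977, adjusted p = 7.01e-10). Of 14 tested clock genes, 7 rose and 3 fell with VPRP sgHBB, 1 rose and 3 fell with VPR sgHBB, 3 rose and 1 fell with p300 sgHBB, 1 rose and 2 fell with p300 D1399Y sgHBB, and 7 rose and 2 fell in VPRP non-target cells. ARNTL had 23.8 and 23.1 CPM with VPRP sgHBB, 14.1 and 14.2 CPM with VPR sgHBB, 20.4 and 18.7 CPM with p300 sgHBB, 9.36 and 7.68 CPM with p300 D1399Y sgHBB, 34.6 and 36.3 CPM in VPRP non-target cells, and 6.65 and 6.99 CPM in WT. Its libraries were all above WT, and highest in VPRP non-target cells, where it rose 5.19-fold (log2 2.38, SE 0.132, adjusted p = 6.03e-17). BHLHE40, a clock repressor, fell there (log2 -1.89, SE 0.12, adjusted p = 2.13e-15).

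Of 8 tested estrogen receptor targets, 1 rose and 6 fell with VPRP sgHBB, 0 rose and 2 fell with VPR sgHBB, 0 rose and 4 fell with p300 sgHBB, 0 rose and 3 fell with p300 D1399Y sgHBB, and 1 rose and 5 fell in VPRP non-target cells. CXCL12, a chemokine, fell in VPRP non-target cells (log2 -1.67, SE 0.266, adjusted p = 1.75e-06), and GREB1 fell with p300 sgHBB (log2 -0.96, SE 0.129, adjusted p = 1.62e-07). Of 12 listed targets of the vitamin D, PXR, CAR, FXR and thyroid receptors, 4 could be tested. The drug pump gene ABCB1 rose in VPRP non-target cells (log2 1.55, SE 0.114, adjusted p = 8.66e-14). SLC51A, a bile acid transporter subunit, had 12 and 22 counts in VPRP non-target cells and 2 and 0 in WT. FGF19, a gut hormone induced by bile acids, had 10 and 16 counts in VPRP non-target cells and 3 and 0 in WT. Of 12 listed HNF4 and LRH-1 targets, 2 could be tested. APOA1, the main protein of HDL, had 37 and 28 counts with VPRP sgHBB and 1 and 1 in WT. MTTP, a lipid transfer protein, had 15 and 22 counts with VPRP sgHBB and 2 and 1 in WT. These 4 genes passed the filter only through fusion libraries, so their difference from WT is given as counts.

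Markers of other cell types moved with the groups as well. The summed level of 5 matched fibroblast and endothelial markers was 61.3 to 65.2 CPM with VPRP sgHBB, 23.7 to 30.9 CPM with VPR sgHBB, 31.7 to 32.1 CPM with p300 sgHBB, 37 to 43.8 CPM with p300 D1399Y sgHBB and 42.4 to 43.3 CPM in VPRP non-target cells, against 16 to 19 CPM in WT. COL1A1 made up most of it, and DCN and CDH5 were at 0 in both WT libraries. The 3 hepatocyte markers summed to at most 2.41 CPM in any library, and TTR was at 0 in 11 of the 12. The part of these markers in the results was not tested.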

How the data were processed

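RNA was measured in 12 libraries of HEK293 cells, 2 biological replicates in each of 6 groups. The values are whole-number counts of reads per gene and library, deposited by the authors. The submitters' processing notes name STAR 2.5, HTSeq 0.6.1, DESeq2 1.24.0, BWA, deepTools and the build hg19 without saying what each did. Strand setting and annotation release: not given in the sources used here. The 10 ChIP samples were not used here.

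Libraries held 14894558 to 17479523 counts. Genes were filtered with filterByExpr, scaled by TMM factors and tested with edgeR 4.0.16's quasi-likelihood test over all 12 libraries (R 4.3.3, limma 3.58.1), with Benjamini-Hochberg adjustment over 16694 genes. An adjusted p under 0.05 was called. SE is the log2 fold change divided by the square root of F. DESeq2 1.42.0, other scaling factors and filters, a replicate block, the compared groups alone and each library left out were alternatives. The script was tested on simulated data. Tables and figures used Python 3.11.15, pandas 2.3.3 and matplotlib 3.10.9. The floor of 3 counts covers counting error alone.

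The members and lists were chosen with earlier results of these data known. Members called with at least 2-fold change and no overlap of libraries, over WT or between p300 and p300 D1399Y, are given in every library, and others by role. Up to 4 genes a list are named, by the largest called change with p300 sgHBB or VPRP non-target over WT at a mean of at least 1 CPM. Of 121 list genes 120 matched. Results of some list genes, and of the blood cell marker list, are not reported here.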

Additional observations from a re-analysis of the deposited data

How the results depend on the processing

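Of 148 calls of nuclear receptor genes, 95 held in all 19 alternatives. The number of members called with p300 D1399Y sgHBB over WT was 7, and 4 under DESeq2, and the cause was not tested. Leaving out 1 library at a time gave 21 to 29 calls for VPRP sgHBB, 7 to 11 for VPR sgHBB, 17 to 21 for p300 sgHBB, 4 to 8 for p300 D1399Y sgHBB and 24 to 28 for VPRP non-target over WT. It gave 7 to 14 calls for p300 over p300 D1399Y, 14 to 23 for VPRP over VPR, 9 to 13 for VPRP over p300, and 5 to 9 between the guides. The list genes gave 434 calls, and 384 to 444 with a library left out. No silent member reached 1 CPM in any library, so none could come on in any of these alternatives. At 0.5 CPM in place of 1 CPM, a level chosen after seeing the data, the number that came on was 1, and the cause was not tested.

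Same-numbered libraries of different groups shared only a number (correlations of their deviations -0.041 to 0.066). With the replicate number as a block, the calls were 26 for VPRP sgHBB, 11 for VPR sgHBB, 20 for p300 sgHBB, 5 for p300 D1399Y sgHBB and 28 for VPRP non-target over WT, 12 for p300 over p300 D1399Y, 23 for VPRP over VPR, 11 for VPRP over p300 and 7 between the guides. The list genes gave 428 calls.

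Some log2 differences near 0 that were not called changed sign. ESRRB with VPR sgHBB over WT was -0.01 under DESeq2, RLE factors and the compared groups alone, -0.00 with no low-count filter, and -0.10 to 0.11 with a library left out. With upper-quartile factors NR2F6 with VPR sgHBB was 0.02 and SGK1 0.00, and with no filter NR2F1 between the guides was 0.00. With a library left out, VDR with VPR sgHBB ranged over -0.03 to 0.32, ESRRB in VPRP non-target cells -0.06 to 0.28 and between p300 and D1399Y -0.00 to 0.29, NR2F2 with D1399Y -0.16 to 0.05, NR2F1 between the guides -0.03 to 0.02, RXRG with D1399Y -0.07 to 0.17, NR4A2 with VPRP sgHBB -0.29 to 0.55, NR2F6 with VPR sgHBB -0.04 to 0.02 and with D1399Y -0.06 to 0.00, and SGK1 with VPR sgHBB -0.23 to 0.22. At this depth 3 counts over a group are 0.0869 to 0.0989 CPM, which limits the silent members.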
